A study of Mus musculus with 2 samples.

Results

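Collagen-processing and crosslinking genes were followed in RNA of whole mouse tibia by a list of 10 symbols, P4ha1, P4ha2, Plod1, Plod2, Lox, Loxl2, Serpinh1, Fkbp10, Crtap and Bmp1. The array annotation used here gave 19 probes to 8 of them, out of 19057 genes with a probe, and Loxl2 and Fkbp10 were not analysed here. The TERC-/- sample, described as G3, came from mice without the RNA component of telomerase and the TERC+/+ sample from wild-type controls. Both were untreated C57BL/6 females at 22 weeks of age. Each sample was 1 pool of tibial RNA from 3 mice on 1 Illumina bead array, so the spread between animals was not measured and no difference below has a test, a standard error or a replicate check.

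Collagen chains are modified and assembled inside the endoplasmic reticulum, the ER, before they are secreted. Prolyl hydroxylases stabilise the triple helix, lysyl hydroxylases prepare lysines for crosslinks and for sugars, and dedicated chaperones hold the folded molecule. After secretion, proteinases remove the propeptides and lysyl oxidases start the covalent crosslinks that give bone its tensile strength. In bone most of this machinery serves type I collagen made by osteoblasts, and inherited defects in several of the genes cause brittle bones.

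Raw intensity over all probes had a median of 138 on the TERC-/- array and 127 on the TERC+/+ array. A detection p under 0.01, taken as above background, was reached by 15363 probes in TERC-/- and by 16640 in TERC+/+. Probes at a detection p above 0.5, called undetected below, had a median raw intensity of 120 on the TERC-/- array and 108 on the TERC+/+ array, so raw values near these are background. The only Terc probe was not above background on either array, at detection p of 0.956 in TERC-/- and 0.607 in TERC+/+, and gives no check of the genotype. Of the bone markers, Bglap, Sp7, Alpl, Ibsp and Phex were detected on both arrays, while Dmp1 and Postn were not above background on either. All 10 skeletal muscle markers were also detected on both, so the tissue held muscle as well as bone.

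Most of the collagen-processing genes were lower in the TERC-/- pool. By the normalized log2 level of the brightest probe of each gene, a drop of 2-fold or more was seen in 5 of the 8 measured genes, where 8.81% of all 9953 genes above background on at least 1 array fell that far. None was 2-fold higher, where 6.87% of all genes were. The 5 were Lox, Plod2, Serpinh1, P4ha2 and Bmp1, and Crtap, P4ha1 and Plod1 lay within 2-fold. The median difference of the 8 genes, TERC-/- minus TERC+/+, was -1.19 on the log2 scale, beside 0.01 over all genes, and 7 of the 8 were below 0, where 49.1% of all genes were. Lox and Plod2 were more than 3-fold lower, where 3.06% of all genes were. All 8 were above background on both arrays, so none entered through 1 array alone. In whole tissue, fewer cells of a type and less RNA per cell cannot be told apart. Without background correction 2 of the 8, Lox and Serpinh1, were at least 2-fold lower, beside 4.89% of all genes, and the same 2 in the deposited normalized table, beside 5.08%.

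**Figure D1:**
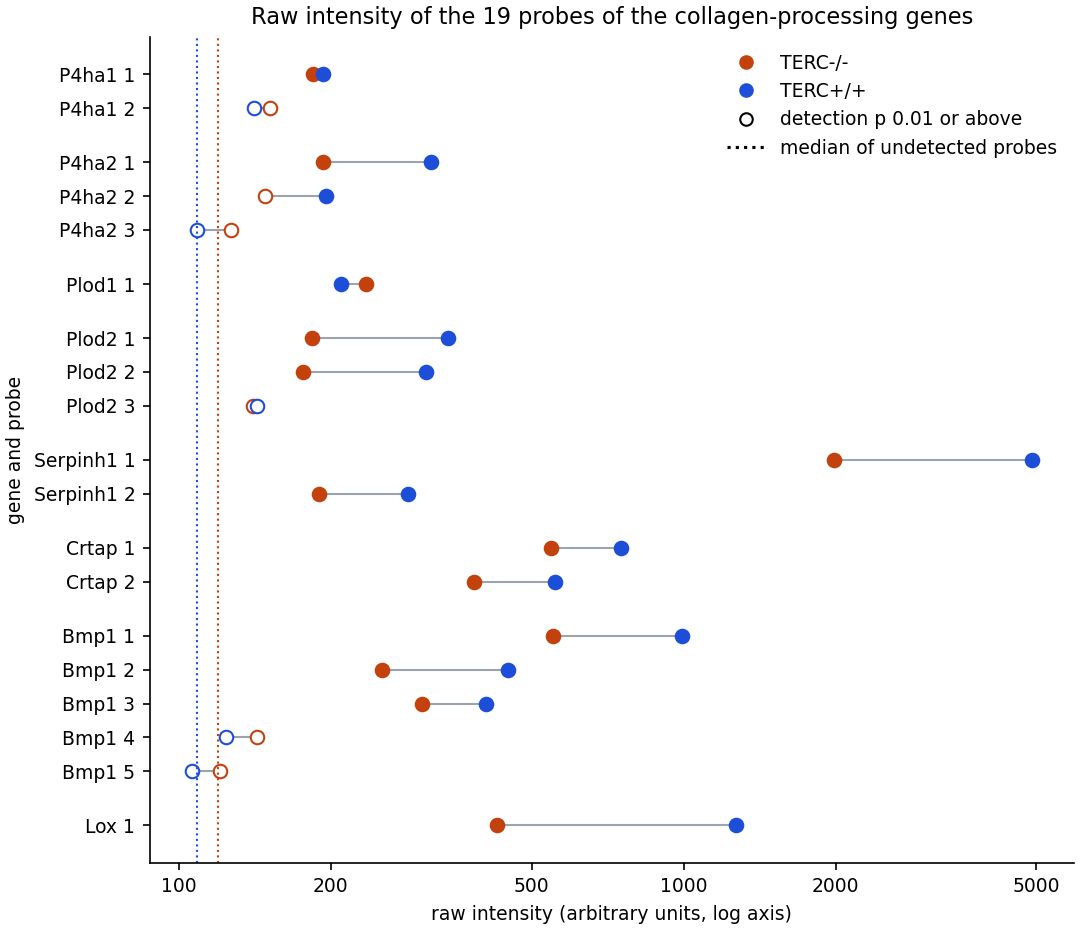
Raw intensity (x axis, log scale, arbitrary units) of each of the 19 probes of the 8 genes on the TERC-/- and TERC+/+ arrays, 1 pool each, with open circles for values not above background and dotted lines for the median of undetected probes. The pairs of Lox, of the brighter Serpinh1 probe, of both Crtap probes and of the first Bmp1 probe stand clear of the background lines. No value of P4ha1, P4ha2, Plod1 or Plod2 exceeds 341.

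Over single probes the same direction held. Of the 19 probes, 13 were detected on both arrays, 1 on the TERC+/+ array only and 5 on neither. Of the 13, 12 were lower in TERC-/-, where 43.2% of the 12662 such probes of all genes were, and 8 were at least 2-fold lower, where 7.92% were. The exception was the Plod1 probe. Probes of 1 gene read the same 2 pools, so their agreement concerns the array and not the mice.

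The prolyl 4-hydroxylase alpha subunits carry the active site of the enzyme that makes hydroxyproline. P4ha2 had raw intensities of 193 in TERC-/- and 315 in TERC+/+ on its brightest probe. Its normalized log2 levels were 6.40 in TERC-/- and 7.72 in TERC+/+, a difference of -1.32, or 2.49-fold lower. A further P4ha2 probe was above background in TERC+/+ only, with raw intensities of 148 in TERC-/- and 196 in TERC+/+, and the third was not above background on either array. P4ha1, the other alpha subunit, had raw intensities of 184 in TERC-/- and 193 in TERC+/+, with a normalized difference of -0.22. Its further probe was not above background on either array. P4ha1 was close to background on both arrays, at 1.54 times the median of undetected probes in TERC-/- and 1.78 times in TERC+/+. The 2 paralogs thus gave different values on the same arrays, but with little signal from P4ha1, and their difference from each other could not be tested.

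The promoters of P4ha1, P4ha2 and Serpinh1 are shown because P4ha2 and Serpinh1 were at least 2-fold lower while P4ha1, the paralog of P4ha2, was within 2-fold. P4ha1 and P4ha2 are known targets of the hypoxia-inducible factors, HIF, whose binding core includes the letters ACGTG. Of the 10 genes, 5 have an entry in the RefSeq promoter table of GRCm38.p6, which holds 250 bases before and 50 after a gene's start. Each line runs 5′ to 3′ on the gene's strand, in lower case, with capitals for ACGTG read on either strand (CACGT is its reverse complement). The windows are chr10:59323046-59323345 on the plus strand for P4ha1, chr11:54100674-54100973 on the plus strand for P4ha2 and chr7:99353190-99353489 on the minus strand for Serpinh1.
P4ha1: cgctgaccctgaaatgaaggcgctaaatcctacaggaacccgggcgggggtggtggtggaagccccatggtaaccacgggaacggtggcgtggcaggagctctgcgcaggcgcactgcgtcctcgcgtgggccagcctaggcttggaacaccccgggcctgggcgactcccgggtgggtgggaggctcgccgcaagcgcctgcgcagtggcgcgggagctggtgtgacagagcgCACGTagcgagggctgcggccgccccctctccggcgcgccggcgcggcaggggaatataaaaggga
P4ha2: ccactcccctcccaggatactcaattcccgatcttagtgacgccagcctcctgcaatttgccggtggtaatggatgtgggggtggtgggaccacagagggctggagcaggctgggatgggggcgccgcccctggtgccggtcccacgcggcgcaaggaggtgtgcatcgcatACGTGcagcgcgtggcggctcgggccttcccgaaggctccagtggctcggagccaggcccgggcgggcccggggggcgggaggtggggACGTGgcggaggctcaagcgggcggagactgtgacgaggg
Serpinh1: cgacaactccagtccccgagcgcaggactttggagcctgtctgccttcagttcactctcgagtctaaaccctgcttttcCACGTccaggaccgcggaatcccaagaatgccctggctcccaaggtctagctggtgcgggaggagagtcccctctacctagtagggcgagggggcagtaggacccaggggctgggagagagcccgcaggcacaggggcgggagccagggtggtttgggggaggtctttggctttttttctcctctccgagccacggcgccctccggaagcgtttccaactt

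P4ha2 held ACGTG at 2 places, 1 starting 78 bases before the gene's start and the other 10 bases after it. P4ha1 held it once, from 16 bases before the start, and Serpinh1 once, from 171 bases before, both on the opposite strand. The promoters of Crtap and Plod1 held none. ACGTG occurred on either strand in 19.6% of all 32851 promoters of the table, against 3 of these 5. The GC-box letters GGGCGG were in all 5, and in 35.7% of all promoters. The TATA-box letters TATAAA were in those of Crtap, P4ha1 and Plod1, and in 13.6% of all, while CCAAT was in none of the 5 and in 37.4% of all. The motifs were searched as exact letters on both strands, none contains another, and a match is a run of letters and not a bound site.

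The lysyl hydroxylases also differed between paralogs. Plod2 hydroxylates lysines of the collagen telopeptides, the modification from which mature pyridinoline crosslinks of bone form. Its brightest probe had raw intensities of 184 in TERC-/- and 341 in TERC+/+. The normalized log2 levels were 6.23 in TERC-/- and 7.88 in TERC+/+, a difference of -1.65, or 3.14-fold lower, and 323 of the 9953 genes had a lower difference. A further Plod2 probe read 176 in TERC-/- and 308 in TERC+/+ and differed by -1.62 after normalization. The third Plod2 probe was not above background on either array. Plod1, which hydroxylates lysines within the helix, was the only one of the 8 genes with a higher value in TERC-/-. Its single probe had raw intensities of 235 in TERC-/- and 209 in TERC+/+, and a normalized difference of 0.27.

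P4ha2 and Plod2 were close to background in TERC-/-, and the size of their difference moved with the background correction. Their brightest probes read 1.61 and 1.54 times the median of undetected probes in TERC-/-, and 2.91 and 3.14 times in TERC+/+. The Plod1 probe was also dim, at 1.96 times that median in TERC-/- and 1.93 times in TERC+/+. With the background left in, P4ha2 differed by -0.73 and Plod2 by -0.91, both within 2-fold. In the deposited normalized table the values were -0.74 and -0.93.

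**Figure D2:**
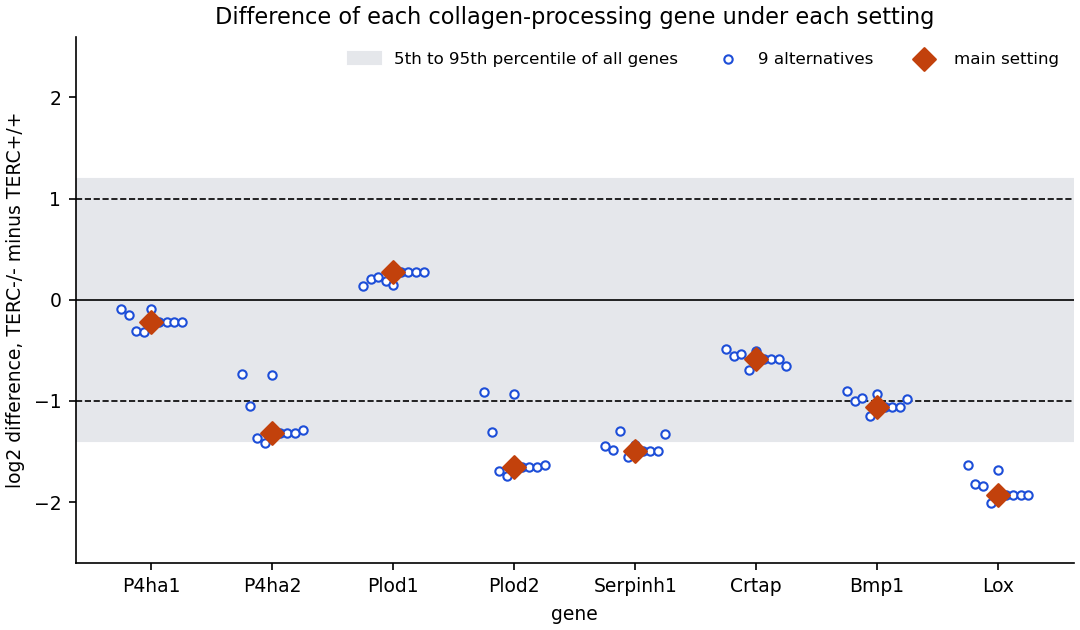
Log2 difference, TERC-/- minus TERC+/+ (y axis), of the 8 genes under the main setting (diamonds) and 9 alternatives (open circles), with dashed lines at 2-fold and a grey band from the 5th to the 95th percentile of all genes, -1.40 to 1.20. Every circle of Lox and Serpinh1 lies below the lower dashed line, those of P4ha2, Plod2 and Bmp1 lie on both sides of it, and those of Crtap, P4ha1 and Plod1 lie within 2-fold.

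Among the chaperones of procollagen, Serpinh1 was lower and Crtap was within 2-fold. Serpinh1, or HSP47, is a collagen-specific chaperone that binds the triple helix in the ER. Its brighter probe had raw intensities of 1988 in TERC-/- and 4894 in TERC+/+, or 16.6 and 45.1 times the median of undetected probes of each array. The normalized log2 levels were 10.81 in TERC-/- and 12.31 in TERC+/+, a difference of -1.50, or 2.83-fold lower. The other Serpinh1 probe read 189 in TERC-/- and 284 in TERC+/+ and differed by -1.16. Over the 9 alternatives the Serpinh1 difference ran from -1.55 to -1.30, at least 2-fold in each.

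Crtap belongs to the complex that hydroxylates single prolines of the collagen chains at another position, together with P3h1, the enzyme, and Ppib, a prolyl isomerase. Crtap had raw intensities of 547 in TERC-/- and 753 in TERC+/+ on one probe, and 385 in TERC-/- and 556 in TERC+/+ on the other. Their normalized differences were -0.59 and -0.72, so both probes were lower in TERC-/- and neither reached 2-fold. P3h1 was at 0.52 and Ppib at 0.10, both named with their values already seen, for their place in the complex. The P3h1 probe at 0.52 read 183 in TERC-/- and 154 in TERC+/+, close to background. A further P3h1 probe, at -0.44, was above background in TERC+/+ only, so its direction is no result.

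Of the enzymes that act outside the cell, Bmp1, which cleaves propeptides, and Lox, which starts crosslinks, were lower. Bmp1, the proteinase that removes the C-propeptide of fibrillar procollagens and also activates lysyl oxidase, had 5 probes. The brightest read 551 in TERC-/- and 991 in TERC+/+, with normalized log2 levels of 8.78 in TERC-/- and 9.83 in TERC+/+, a difference of -1.06, or 2.08-fold lower. The other Bmp1 probes above background differed by -1.25 and -0.64, and the last 2 were not above background on either array. Bmp1 therefore lay near the 2-fold line, and 4 of 9 alternatives put it inside, at -0.90 to -0.98.

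Lox, lysyl oxidase, converts lysines and hydroxylysines to the aldehydes that form crosslinks. Its single probe had raw intensities of 427 in TERC-/- and 1272 in TERC+/+, both with a detection p of 0. The normalized log2 levels were 8.31 in TERC-/- and 10.24 in TERC+/+, a difference of -1.93, or 3.80-fold lower. Of the 8 genes Lox had the lowest difference in the main setting, and 204 of the 9953 genes, 2.05%, had a lower one. Over the alternatives it ran from -2.01 to -1.63, or 4.04-fold to 3.10-fold lower. As it rests on 1 probe, no other probe could be set beside it.

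**Figure D3:**
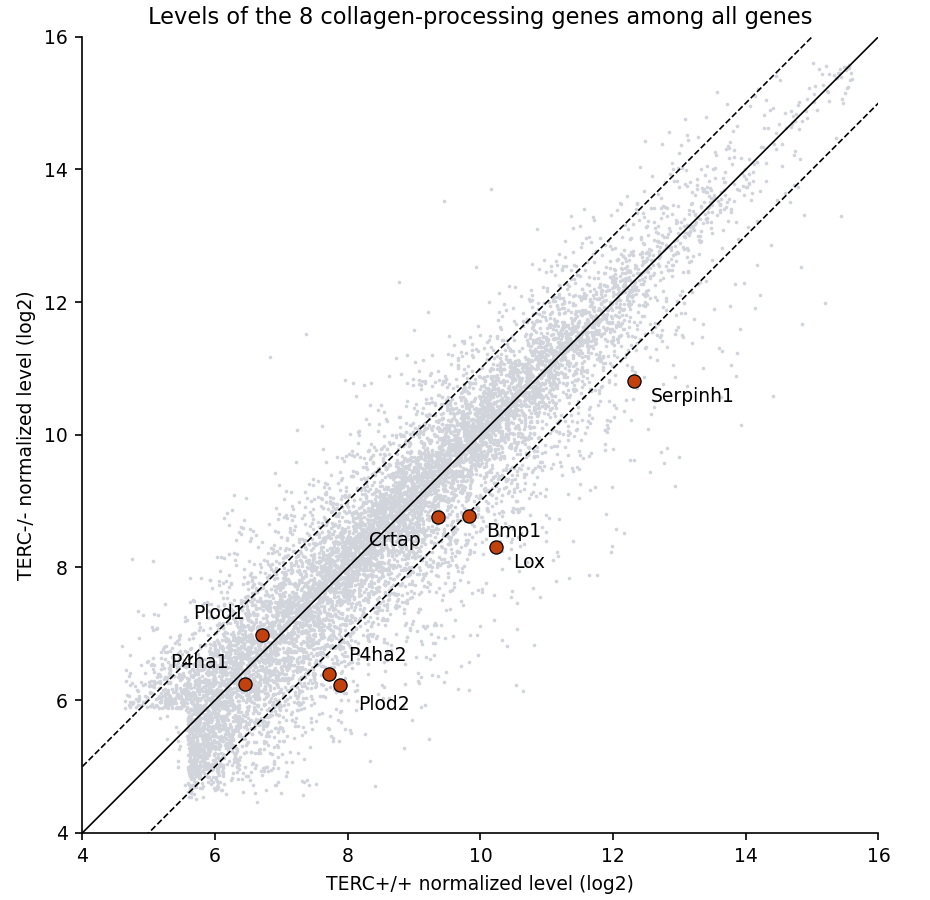
Normalized log2 level in TERC-/- (y axis) against TERC+/+ (x axis) of 9953 genes (grey) and the 8 collagen-processing genes (orange), 1 array per genotype, with a solid line of equal level and dashed lines at 2-fold. Lox, Plod2, Serpinh1, P4ha2 and Bmp1 lie below the lower dashed line, Bmp1 just below it, and Plod1 alone lies above the line of equal level. The corner without grey points at the lowest levels is left by the filter on detection.

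Other genes of the pathway went both ways. Of 26 further collagen-processing genes on a fixed list, 25 had a probe and 19 were above background on at least 1 array, 13 of them on both and 6 in TERC+/+ only. The 6 entered through the array where they are high, so their direction is no result. Of the 13 detected on both arrays, 2 fell by 2-fold or more in TERC-/-, Sparc and Pcolce, and 1 rose as far, and the median difference was -0.22. Of all 8781 genes detected on both arrays, 8.95% fell and 7.30% rose as far. The 1 rise lay near that share, and the 2 falls are too few to set apart from it. With the background left in, Sparc was the one gene of the list 2-fold lower, while under cyclic loess Loxl1 was also 2-fold lower, at -1.07. Sparc, a collagen-binding matrix protein of bone, had raw intensities of 5324 in TERC-/- and 13534 in TERC+/+ on its brightest probe. The normalized difference of Sparc was -1.57, and its 3 probes ran from -2.57 to -1.57. Pcolce, the protein that enhances C-propeptide cleavage by Bmp1, read 320 in TERC-/- and 570 in TERC+/+ and differed by -1.14. P3h3, a prolyl 3-hydroxylase family member that acts with Plod1, was one of the 6 seen in TERC+/+ alone. It was the one of them whose bound in the main setting passed 2-fold, at 2.05-fold lower. With the background left in P3h3 differed by -0.49, and its direction, like that of the other genes seen in TERC+/+ alone, is no result.

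The gene of this list past 2-fold in the other direction was Tmem38b, an ER cation channel whose loss impairs collagen processing in bone. It had raw intensities of 2717 in TERC-/- and 1011 in TERC+/+ on one probe and 1430 in TERC-/- and 718 in TERC+/+ on the other. The normalized differences were 1.42 and 1.04. The first probe was at least 2-fold higher in each setting of background and normalization, while the second came inside 2-fold without background correction, at 0.93, under cyclic loess, at 0.95, and in the deposited normalized values, at 0.96. Plod3, the third lysyl hydroxylase, also adds glucose to hydroxylysine that already carries galactose. Plod3 read 4895 in TERC-/- and 2340 in TERC+/+ and differed by 0.94. P4hb, the beta subunit of prolyl 4-hydroxylase and at the same time protein disulfide isomerase, read 14878 in TERC-/- and 7862 in TERC+/+ and differed by 0.75. Plod3 and P4hb were thus higher in TERC-/- but inside 2-fold, except that Plod3 reached 1.15 with scaling to a common median, with values opposite in sign to those of Plod2 and P4ha2.

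Of the other genes of the list with large differences, Loxl1, a lysyl oxidase relative of elastic fibres, differed by -0.99, with raw intensities of 1307 in TERC-/- and 2322 in TERC+/+. Fkbp14, a prolyl isomerase of the ER, differed by -0.85. P3h4, a partner of Plod1 and P3h3 in the ER, and Colgalt2, a collagen galactosyltransferase, were detected in TERC+/+ alone. Their bounds in the main setting were 1.87-fold and 1.34-fold lower in TERC-/-, and with the background left in they differed by -0.47 and -0.39. As both entered through TERC+/+ alone, their direction is no result.

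The collagen chains that these enzymes act on were lower in the same comparison. All 5 fibrillar collagen genes detected on both arrays fell by 2-fold or more in TERC-/-, where 8.95% of all genes so detected did, with a median of -2.30. A further 3, Col5a2, Col24a1 and Col27a1, entered through the TERC+/+ array only, so their direction is no result. On their brightest probes the main setting gave bounds of 3.96-fold lower for Col5a2 and 5.23-fold lower for Col24a1. Col27a1 has no such bound. These bounds depend on the background correction and on the probe. With the background left in, Col5a2 differed by -1.20 and Col24a1 by -1.46. A further probe of each, also detected in TERC+/+ only, differed by -0.86 for Col5a2 and by -1.75 for Col24a1 in the main setting. With the background left in, these further probes differed by -0.30 and -0.71. Col1a1 and Col1a2, the chains of type I collagen, differed by -2.30 and -3.12, and Col3a1, of type III collagen, by -2.77. Col3a1 was close to background in TERC-/-, at 1.56 times the median of undetected probes. With the background left in Col3a1 differed by -1.79, and its other probe was not above background on either array. The normalized values of the collagen list summed to 5554 in TERC-/- and 28069 in TERC+/+, and those of the 8 processing genes to 3349 in TERC-/- and 8488 in TERC+/+. Both sums were lower in TERC-/-, at 0.198 and 0.395 times the TERC+/+ sum. The collagen sum, and so its ratio, includes Col5a2, Col24a1 and Col27a1, which entered through the TERC+/+ array only. Serpinh1 alone gave most of the sum of the processing genes on each array.

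General folding factors of the ER did not go the same way as Serpinh1. Over all genes above background on at least 1 array, 8.81% were at least 2-fold lower and 6.87% at least 2-fold higher. Of 14 general folding genes above background, none was 2-fold lower and 2 were at least 2-fold higher, and the median was 0.18. With the background left in none was 2-fold higher and the median was 0.09, and under cyclic loess 1, Ddit3, was 2-fold lower. The 2 were Sdf2l1, at 1.19, and Dnajc3, at 1.13, both ER chaperone cofactors induced by unfolded protein, and Ddit3, a stress transcription factor, was at -0.99. Targets of HIF were on the whole not lower either. Over all genes detected on both arrays, 7.30% rose and 8.95% fell by 2-fold or more. Of 14 HIF targets detected on both arrays, 4 rose by 2-fold or more in TERC-/- and 1 fell as far, with a median of 0.39. Beside them P4ha1, P4ha2, Plod2 and Lox, also known HIF targets, were at -0.22, -1.32, -1.65 and -1.93. The higher ones included Slc2a1, a glucose transporter, at 1.55, Egln3, an oxygen-sensing prolyl hydroxylase, at 1.31, and Ddit4, an inhibitor of growth signalling, at 1.13. The other was Pgk1, at 1.03, and the lower one was Bnip3l, at -1.08, both named with their values already seen. With scaling to a common median no HIF target was 2-fold lower, and by the deposited normalized values 2 were 2-fold higher and none lower.

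**Figure D4:**
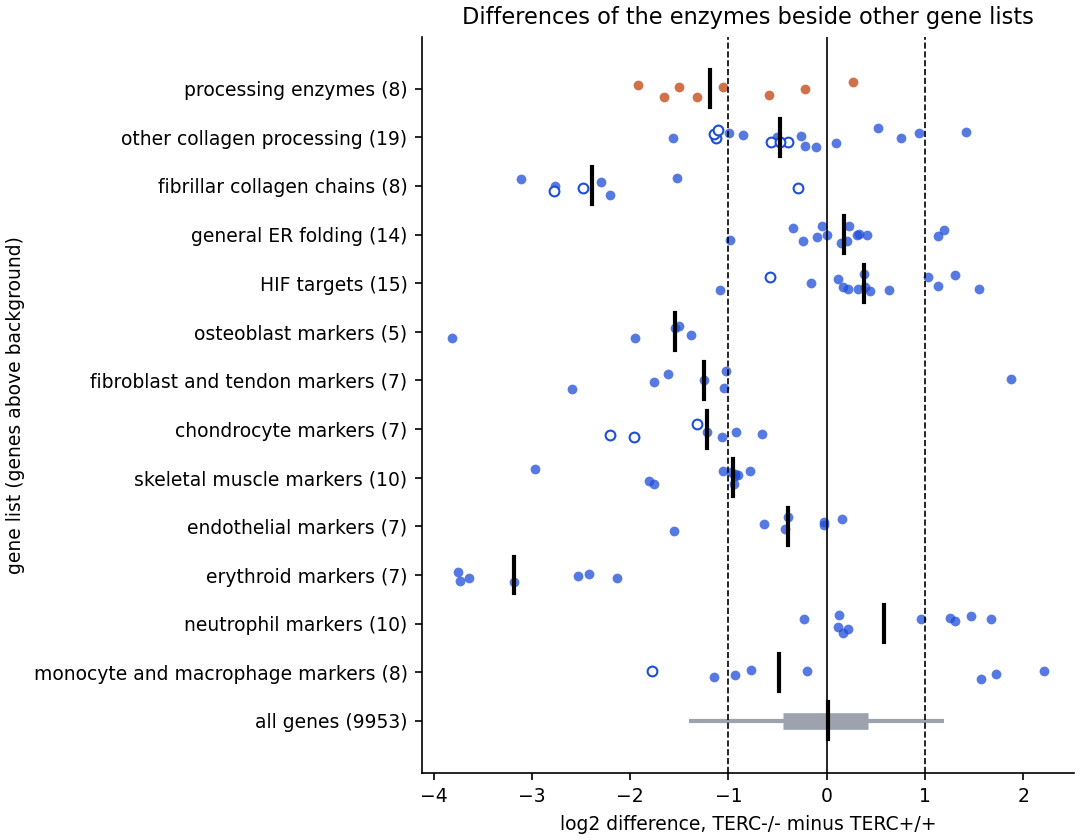
Log2 difference, TERC-/- minus TERC+/+ (x axis), of each gene above background on at least 1 array, by list, with open circles for genes above background in TERC+/+ only, which the filter places at lower values, thick bars for medians, and the 25th to 75th (thick) and 5th to 95th (thin) percentiles of all genes. The medians run from -3.18 for erythroid markers to 0.59 for neutrophil markers, with the collagen-processing genes at -1.19, collagen chains at -2.39 and ER folding genes at 0.18.

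Markers of several cell types moved in the same comparison, where 8.81% of all genes fell and 6.87% rose by 2-fold or more. All 5 osteoblast markers above background were at least 2-fold lower, including Bglap at -3.82, Phex at -1.95 and Sp7 at -1.54, and their normalized values summed to 4698 in TERC-/- and 30355 in TERC+/+. Bglap alone, at a normalized log2 level of 14.40 in TERC+/+, gave most of the sum of that array. Of 7 fibroblast and tendon markers, 6 were at least 2-fold lower and 1 higher, with Lum at -2.59, Dpt at -1.76 and Pi16 at 1.88, and sums of 11471 in TERC-/- and 23801 in TERC+/+. Of 4 chondrocyte markers detected on both arrays, 2 were at least 2-fold lower, with Sox9 at -1.22, Comp at -1.07 and Acan at -0.93, and 3 more were detected in TERC+/+ only, with sums over these 7 of 5312 in TERC-/- and 10175 in TERC+/+. Of 10 muscle markers, 4 were at least 2-fold lower, with Mb at -2.97, Actn2 at -1.81 and Myh1 at -1.75, and sums of 60989 in TERC-/- and 133391 in TERC+/+. A drop of 2-fold or more in TERC-/- was seen in all osteoblast markers above background, in most fibroblast markers and, as given below, in all 7 erythroid markers. With the background left in, 3 fibroblast markers were 2-fold lower, and under cyclic loess 7 muscle markers were, while the 5 osteoblast markers were 2-fold lower in both.

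Of the endothelial markers, 1 of 7 was at least 2-fold lower, Vwf at -1.55, and Eng was at -0.64 and Emcn at -0.42. Their sums were 3508 in TERC-/- and 6799 in TERC+/+, of which Vwf, also made by platelet precursors, gave 1404 in TERC-/- and 4119 in TERC+/+. Without Vwf the sums were 2104 in TERC-/- and 2680 in TERC+/+. Of the marrow markers, all 7 erythroid ones were at least 2-fold lower, led by Ermap at -3.75, Kel at -3.73 and Klf1 at -3.64, with sums of 14527 in TERC-/- and 86972 in TERC+/+. Of 10 neutrophil markers 4 rose by 2-fold or more in TERC-/- and none fell as far, among them Ctsg at 1.68, Mmp8 at 1.47 and Cxcr2 at 1.31, with sums of 292441 in TERC-/- and 229907 in TERC+/+. These sums rest on 1 very bright probe per gene. Other probes of Mpo differed by 0.64, 1.42 and 1.99, where the probe used differed by 0.17, and another probe of Ltf by 0.86, where the probe used differed by -0.23, all named with their values already seen. Monocyte and macrophage markers split, with 3 of 7 detected on both arrays at least 2-fold higher, Itgam at 2.21, Cd14 at 1.73 and Ccr2 at 1.57, and 1 lower, Mrc1 at -1.15, named with its value already seen. In TERC+/+ Itgam, Cd14 and Ccr2 were dim, at 1.74, 2.21 and 2.29 times the median of undetected probes. With the background left in they differed by 1.38, 1.19 and 1.09. With Siglec1, detected in TERC+/+ only, the sums of the monocyte and macrophage markers were 8564 in TERC-/- and 12703 in TERC+/+. The part of these shifts in the values of the collagen-processing genes was not tested.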

How the data were processed

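RNA of whole tibia was measured on 2 Illumina bead arrays, 1 per genotype, grouped by the genotype label. Per the labels, RNA of 3 mice was pooled for each array, extracted with Trizol and made into biotin-labelled cRNA. Per the file headers, one deposited table holds the non-normalized intensity and the detection p-value of each of 45281 probes. This intensity is linear and was not background-subtracted, since its lowest value was 88.7. The other deposited table holds an intensity per probe in the same rank order, with sorted values that differ by at most 0.466 between arrays, as after quantile normalization. Its method is not given in the sources used here, and its column median was 130 on both arrays.

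Background was corrected from the detection p-values with the normexp model (nec of limma 3.58.1, R 4.3.3, offset 16), followed by quantile normalization and log2. Of the probes, 34885 had 1 symbol in the platform annotation, 18 had several and 10378 had none here, and those with several or none were left out. A gene was read by its probe with the highest mean log2 level and entered if any of its probes was detected on either array. A gene above background on 1 array only was called by its bound, against the higher of the lowest detected level on the other array and its own level there, while list medians use normalized values. A 2-fold difference is a rule of size, not a test. The members and lists were chosen with earlier results of these data known. Named are all measured members, the other collagen-processing genes past 2-fold with the 6 next largest, and the 3 largest differences of each further list among genes detected on both arrays. The normalization was tested on simulated data with changes in bright probes only, so the test does not cover signals as dim as those of P4ha1, P4ha2, Plod1 and Plod2. Alternatives covered background, normalization, detection filter, probe summary and threshold. Figures were drawn with matplotlib 3.10.9.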

Additional observations from a re-analysis of the deposited data

How the results depend on the processing

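The count of 5 collagen-processing genes at least 2-fold lower fell to 2 without background correction, to 2 in the deposited normalized table and to 2 at a 3-fold threshold, and was 4 to 6 under the other 8 alternatives. None of the 8 genes was 2-fold higher under any alternative. The median of -1.19 was -0.82 without background correction, -1.02 with an offset of 50, -1.14 with scaling to a common median, -1.28 with cyclic loess, -0.84 in the deposited table and -1.14 with the mean of detected probes, and was the same under the 3 other detection filters. Of 72 single-gene values under 9 alternatives, 64 kept their side of 2-fold, 8 came inside it and none changed sign. Part of the 64 was fixed in advance. All 8 genes were detected on both arrays, so the 3 detection filters could not change a value. The mean of detected probes could not change P4ha1, Plod1 or Lox, which had 1 detected probe each. The 8 were those of P4ha2 and Plod2 without background correction and in the deposited table, and of Bmp1 in these, with median scaling and with the mean of probes. Over all genes, 877 lower and 684 higher became 487 and 355 without background correction and 506 and 362 in the deposited table. Leaving the background in keeps a common signal in both values, which by construction pulls the ratio of dim genes towards 1. No paired analysis was possible because there was 1 array per genotype, and for the same reason no array could be left out. Signal near background limits P4ha1, P4ha2, Plod1 and Plod2.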
